A study of Mus musculus with 10 samples.

Results

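The genes described here are 9 noncoding RNA genes that lie within or beside the mouse Hox clusters: Halr1, Hotairm1, Hoxaas2, Hoxaas3, Gm15050, 5730596B20Rik and Hottip at HoxA, Hotair at HoxC and Hoxb5os at HoxB. The rule that picks them uses gene names and no measured value, but the names were chosen with earlier results of these data known. All 9 were found among the 52636 gene identifiers of the RNA-seq count tables. The series comprises 4 RNA-seq libraries, used here, and 6 Capture-C samples, which were not analysed here. All RNA came from E14 cells, a line of mouse embryonic stem cells, that had been moved from medium with LIF, the MEK inhibitor PD0325901 and the GSK inhibitor CHIR99021 to medium without them, with retinoic acid (RA) added at a labelled dose of 2 µM for 24 h. The 2 WT libraries came from unedited cells, and the 2 CBE-KO libraries from cells in which a CTCF binding element (CBE) had been removed; CTCF is a DNA-binding protein that shapes chromatin loops, and the series title sets this element next to enhancers that contact HoxA. Whether both CBE-KO libraries came from a single clone, and whether replicates were separate cultures, is not given in the sources used here, so p-values measure only the spread between these libraries.

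Hox genes encode transcription factors that give cells their position along the body axis. They sit in clusters, and RA opens each cluster from its 3′ end towards its 5′ end. Between the protein genes, noncoding RNAs are made, most of them from the opposite strand, and several were named for effects on the cluster. Halr1, also called Haunt, lies beside the 3′ end of HoxA, where its RNA was described as restraining HoxA and its DNA as carrying enhancers. Hotairm1 was first described in myeloid cells. Hottip, at the 5′ end of HoxA, was described as bringing the Wdr5-Kmt2a histone methyltransferase to 5′ HoxA genes, and Hotair, within HoxC, as binding Polycomb repressive complex 2.

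The positions of the genes decide which Hox genes each can be set against, and they are given here from RefSeq on GRCm38, the assembly that mm10 names in the submitters' processing notes. Halr1 spans chromosome 6 from 52102949 to 52113684, between Skap2 and the HoxA cluster. Within the cluster follow Hotairm1 (52158524 to 52162020), which ends 396 bases before Hoxa2, and Hoxaas2 (52165674 to 52169451), whose last 393 bases overlap the span of Hoxa3. Gm15050 (52172881 to 52174059) and 5730596B20Rik (52177155 to 52180851) lie inside the long Hoxa3 span of 44009 bases. Hoxaas3 (52201124 to 52213597) covers the whole of Hoxa5 and Hoxa6. Hottip (52262775 to 52267603) starts 1894 bases beyond Hoxa13. Hotair spans chromosome 15 from 102944062 to 102947946, between Hoxc12 and Hoxc11, and Hoxb5os spans chromosome 11 from 96291037 to 96306910, across Hoxb6 and Hoxb5. The RefSeq promoter table gives the plus strand for Halr1, Gm15050, 5730596B20Rik and Hottip, and the minus strand for the HoxA protein genes it holds. The use of strand in the counting is not given in the sources used here. Whether reads from a noncoding gene and from a Hox gene that it overlaps were told apart is therefore not known. Overlaps here are between RefSeq spans, introns included, and exons were not compared.

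RefSeq promoter windows, from 250 bases before the annotated start to 50 bases after it, were found for 4 of the 9 genes: Halr1, Gm15050, 5730596B20Rik and Hottip. Those of 2 genes that rose in CBE-KO and of Halr1, which did not pass the test, are shown to set the starts of these transcripts side by side. Capitals mark matches to the motifs searched for, on both strands.
Gm15050, chr6:52172631-52172930, plus strand: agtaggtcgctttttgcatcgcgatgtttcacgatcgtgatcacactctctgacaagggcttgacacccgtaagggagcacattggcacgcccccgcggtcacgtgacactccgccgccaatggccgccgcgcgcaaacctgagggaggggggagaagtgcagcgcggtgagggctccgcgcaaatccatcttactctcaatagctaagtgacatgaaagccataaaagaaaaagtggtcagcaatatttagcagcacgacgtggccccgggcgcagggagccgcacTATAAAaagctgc
5730596B20Rik, chr6:52176905-52177204, plus strand: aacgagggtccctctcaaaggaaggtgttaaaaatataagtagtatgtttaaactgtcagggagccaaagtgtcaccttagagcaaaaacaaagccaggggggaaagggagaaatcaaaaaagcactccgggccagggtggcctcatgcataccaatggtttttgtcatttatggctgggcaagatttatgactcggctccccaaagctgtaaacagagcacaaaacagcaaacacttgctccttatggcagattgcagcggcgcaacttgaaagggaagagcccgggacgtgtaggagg
Halr1, chr6:52102699-52102998, plus strand: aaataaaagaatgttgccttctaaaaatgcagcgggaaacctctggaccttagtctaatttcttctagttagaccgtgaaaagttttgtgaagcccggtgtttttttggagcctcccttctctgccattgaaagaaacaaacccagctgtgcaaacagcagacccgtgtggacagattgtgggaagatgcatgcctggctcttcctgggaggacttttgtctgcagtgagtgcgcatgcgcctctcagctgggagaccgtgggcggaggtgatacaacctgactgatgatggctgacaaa
The motifs were AGGTCA (the core site of RA receptors), direct repeats of such sites with 5 free bases between the copies (of AGGTCA with itself, of AGTTCA with itself, and of GGTTCA followed by one AGTTCA copy), AGGNGGC (part of the CTCF motif), TATAAA (the TATA box) and TGATNNAT (a Hox-Pbx site). The first direct repeat contains AGGTCA, so those matches overlap. The single match in the 4 windows was a TATAAA in Gm15050 that begins 38 bases into the transcript. Among all 32851 promoter windows of the same length, TATAAA occurred in 13.6%, AGGTCA in 16.3%, AGGNGGC in 29.4% and TGATNNAT in 8.85%, and the direct repeats in 0.00913%, 0.0244% and 0.00609%. Gm15050 differed from the other windows in base composition, with a GC content of 57.0% and 25 CpG pairs. The windows of Halr1, 5730596B20Rik and Hottip had 49.0%, 48.0% and 47.7% GC and 8, 7 and 6 CpG pairs, beside medians of 52.7% and 7 over all windows.

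Library totals ranged from 14108038 to 15632960 counts, so that 3 counts, the floor used here for a measurable gene, equalled 0.192 to 0.213 CPM (counts scaled to a common library size) when the plain library total is used. All 10 embryonic stem cell markers were tested, among them Dppa5a and Pou5f1, with means of 3491 and 1026 CPM in WT and 4246 and 814 CPM in CBE-KO. Of 6 fibroblast markers, Dcn and Postn had 0 counts in all libraries and the summed level was 11.3 to 12.9 CPM in WT and 14.8 to 17.6 CPM in CBE-KO. Of the others, Col1a1 passed as higher, at means of 3.45 and 6.35 CPM, Col1a2 went from 0 and 1 counts to 12 and 8, Col3a1 from 0 and 0 to 8 and 1, and Thy1 did not pass. The groups also differed in Y-linked genes: the summed level of Ddx3y, Eif2s3y, Uty and Kdm5d was 0.726 to 0.820 CPM in WT and 129 CPM in both CBE-KO libraries. This difference between the cells follows the same split as WT and CBE-KO. Its part in the results below was not tested and cannot be told apart from that of the removed element.

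Of the 9 noncoding genes, 7 had enough counts to be tested, and 5 of these rose in CBE-KO: Hotairm1, Hoxaas2, Hoxaas3, Gm15050 and 5730596B20Rik, which are the members inside HoxA apart from Hottip. Their rises ranged from 1.94-fold to 4.32-fold. Halr1 and Hoxb5os did not pass, Hotair was too low to test, and Hottip had no count in any library. The test was edgeR's quasi-likelihood test with TMM scaling (a trimmed mean of log ratios), two-sided, with p adjusted by Benjamini-Hochberg over all 16005 tested genes and a threshold of 0.05. Of all tested genes 43.1% passed, 21.6% as higher and 21.5% as lower. Higher genes were 50.2% of those that passed, and 67.0% with library totals alone as the scaling. Among the 2076 tested genes in the mean expression range of the 5 genes that rose, 3.07 to 7.81 CPM, 26.9% passed as higher. Among the 629 tested genes that RefSeq classes as long noncoding RNAs, 11.3% passed as higher and 15.1% as lower. The median log2 fold change was 1.50 for the 7 tested members, 0.01 for all tested genes and -0.08 for the tested long noncoding RNAs. Both CBE-KO libraries lay above both WT libraries for all 7 tested members, as they did for 36.4% of all tested genes.

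**Figure D1:**
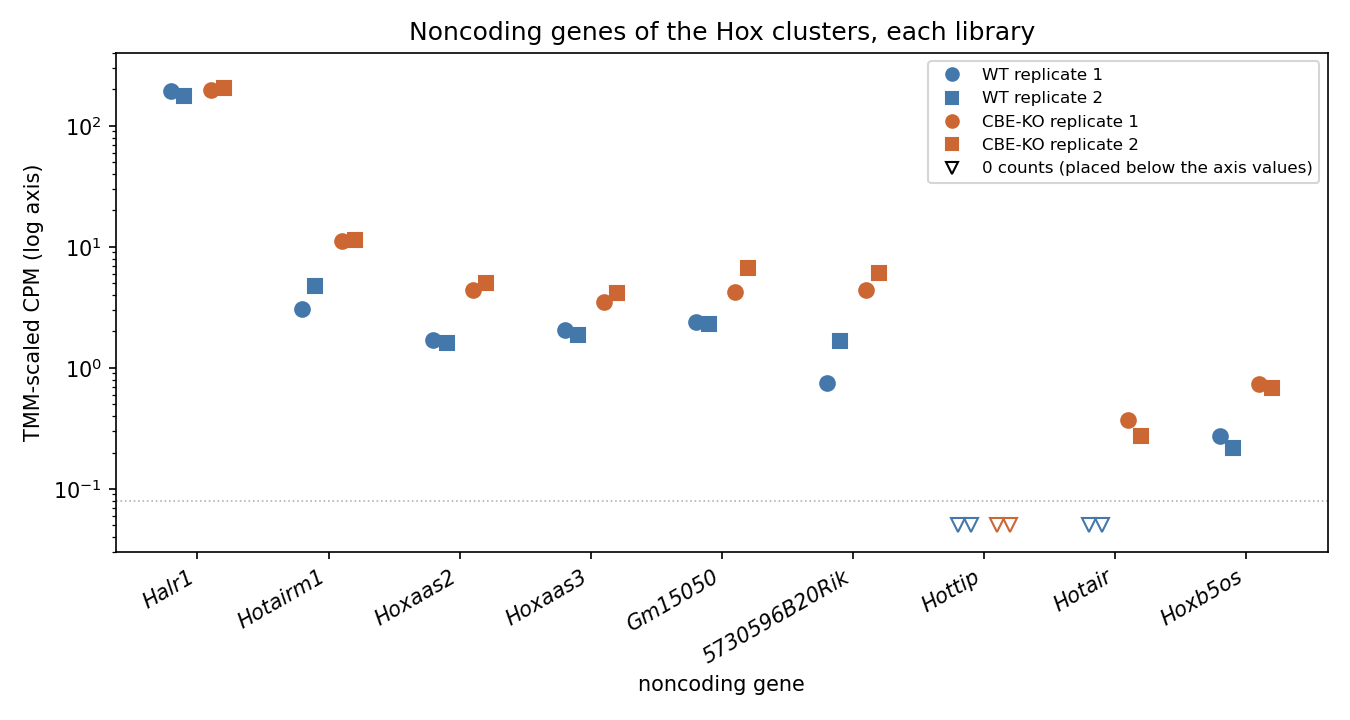
TMM-scaled CPM (log axis) of the 9 noncoding genes in each library, with WT in blue, CBE-KO in orange, circles for replicate 1 and squares for replicate 2. Open triangles below the dotted line mark 0 counts. Both CBE-KO libraries lie above both WT libraries for each gene except Hottip, and the gap is smallest for Halr1.

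Halr1, the gene beside the cluster, was counted 2859 and 2434 times in the WT libraries and 3219 and 2975 times in those of CBE-KO. These were 195 and 177 CPM in WT and 198 and 204 CPM in CBE-KO, so the groups did not overlap, but WT replicate 1 lay just below CBE-KO replicate 1. Its log2 fold change was 0.11 ± 0.05 (SE, n = 2 libraries each; edgeR adjusted p = 0.106), a 1.08-fold difference with a 95% interval of 0.999 to 1.17. The call rests on WT replicate 1: without it the log2 fold change was 0.18 (edgeR adjusted p = 0.00443), and without WT replicate 2 it was 0.04 (edgeR adjusted p = 0.660). Halr1 also passed with upper-quartile scaling (edgeR adjusted p = 0.0297) and with library totals alone (edgeR adjusted p = 0.00177), a scaling under which the median over all genes was itself 0.11 on the log2 scale. Of all tested genes, 39.7% had a higher log2 fold change than Halr1.

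Hotairm1, next along the cluster, was counted 45 and 65 times in WT against 181 and 165 times in CBE-KO. Its level went from 3.08 and 4.72 CPM to 11.1 and 11.3 CPM. The WT libraries differed from each other by more than the CBE-KO libraries did, and both lay far below the latter. This was a log2 fold change of 1.53 ± 0.20 (SE, n = 2 each; edgeR adjusted p = 7.41e-06), and 3.12% of tested genes had a higher one.

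Hoxaas2, an antisense RNA between Hoxa2 and Hoxa3, rose from 25 and 22 counts to 71 and 74. This was 1.71 and 1.60 CPM against 4.37 and 5.08 CPM, with no overlap between groups. Its log2 fold change was 1.51 ± 0.26 (SE, n = 2 each; edgeR adjusted p = 0.000173). Gm15050 rose from 35 and 32 counts to 69 and 98, or 2.39 and 2.32 CPM against 4.24 and 6.72 CPM. Here the WT libraries were close together and the CBE-KO libraries apart. Its log2 fold change was 1.21 ± 0.26 (SE, n = 2 each; edgeR adjusted p = 0.00127). The size of this rise depends on the CBE-KO libraries: it was 1.51 without CBE-KO replicate 1 and 0.85 without CBE-KO replicate 2.

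5730596B20Rik had the largest log2 fold change of the 7 tested members. It was counted 11 and 23 times in WT against 72 and 88 times in CBE-KO, or 0.752 and 1.67 CPM against 4.43 and 6.04 CPM. The log2 fold change was 2.11 ± 0.32 (SE, n = 2 each; edgeR adjusted p = 4.71e-05), and 1.21% of tested genes had a higher one. Its WT libraries lay far apart, and the size of the rise depends on them: the log2 fold change was 1.64 without WT replicate 1 and 2.77 without WT replicate 2, and it passed in both fits.

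Hoxaas3, an antisense RNA across Hoxa5 and Hoxa6, rose from 30 and 26 counts to 57 and 61. This was 2.05 and 1.89 CPM against 3.51 and 4.18 CPM, without overlap, and the smallest rise of the 5. It amounted to a log2 fold change of 0.96 ± 0.27 (SE, n = 2 each; edgeR adjusted p = 0.00769). It did not pass without CBE-KO replicate 2 (0.83, edgeR adjusted p = 0.0749) or in DESeq2 (0.95, adjusted p = 0.120).

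Added up, the 5 noncoding genes inside HoxA that rose went from 146 and 168 counts to 450 and 486, or 9.98 and 12.2 CPM against 27.7 and 33.3 CPM. Halr1 alone had more counts than this sum in every library.

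Hottip, at the 5′ end of HoxA, had 0 counts in all 4 libraries; a count of 0 allows a level of up to 0.184 to 0.218 CPM, depending on the library. Its neighbour Hoxa13 was also close to the floor, at 4 and 0 counts in WT against 14 and 4 in the CBE-KO libraries. A count of 0 in these tables need not mean a silent gene: Men1, which encodes the menin subunit of Kmt2a complexes and is active in most cells, was also listed at 0 in all libraries. Hotair had no count in WT and 6 and 4 in the CBE-KO libraries. Its mean there was 1.52 times the WT level that a floor of 3 counts per library would give, and it was not tested. Without a filter on low counts its edgeR adjusted p was 0.0494, a value that rests on 10 counts in all. The Hox genes on either side of Hotair were low in WT as well. Hoxc11 had no count in WT and 16 and 9 in the CBE-KO libraries, with a mean there of 3.79 times the same floor. Hoxc12 went from 1 and 0 counts to 6 and 19. These floors reflect counting error alone, as reads that carry no molecular identifier are not independent molecules. The counts in CBE-KO were given no error, so these folds are not lower limits.

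Hoxb5os, which runs across Hoxb6 and Hoxb5, was the HoxB member and went from 4 and 3 counts to 12 and 10. Its level was 0.273 and 0.218 CPM against 0.738 and 0.686 CPM, without overlap between the groups. The log2 fold change of 1.50 ± 0.62 (SE, n = 2 each; edgeR adjusted p = 0.0599) had a wide interval, from 1.14-fold to 7.01-fold, and passed with library totals alone (edgeR adjusted p = 0.0436).

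**Figure D2:**
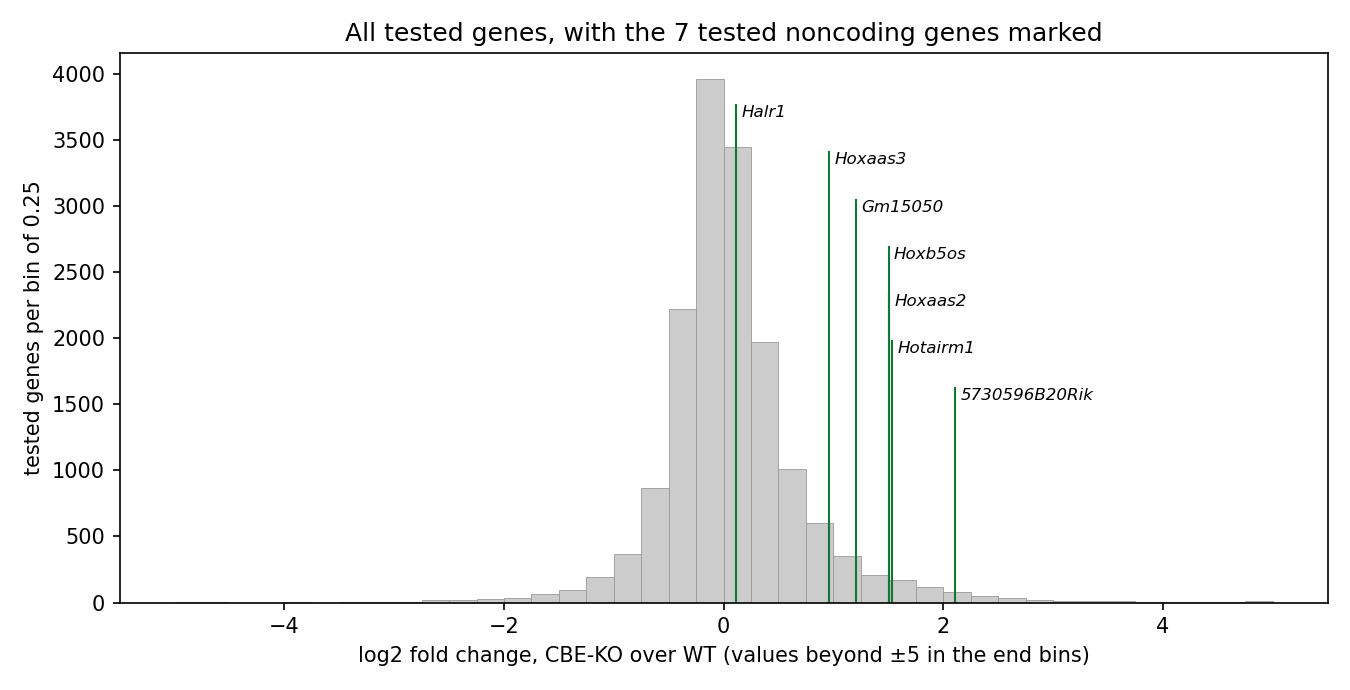
Number of tested genes (vertical axis) in each bin of log2 fold change, CBE-KO over WT (horizontal axis, bin width 0.25), with green lines at the 7 tested noncoding genes. Halr1 lies within the bulk of all genes at 0.11, and the other 6 lie in the upper tail from 0.96 to 2.11.

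Each tested noncoding gene was then set against the Hox protein genes beside it: those whose RefSeq spans it overlaps, and the next on each side among those reported here. The question was whether a noncoding gene moved by the same amount as its neighbours. This gave 20 pairs. The difference is the log2 fold change of the noncoding gene minus that of the Hox gene, with the SE of both combined as if the genes were independent. The exact two-sided permutation test of the log2 ratio over 4 libraries cannot go below p = 0.333, so no pair could pass it. The adjusted p of each pair in that test was 0.444 or above. The 95% interval of the difference used the normal distribution, which gives narrower limits than the t distribution used for single genes. It left out 0 in 8 of the 20 pairs, in each with the higher log2 fold change in the noncoding gene, and held 0 in the others. These 8 include Hoxb5os against Hoxb3, whose lower limit of 0.000353 is too close to 0 to count as firm. Pairs that share a gene are not independent.

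Of the 5 noncoding genes set against Hoxa2, a 3′ gene needed for hindbrain and branchial arch patterning, 4 had a higher log2 fold change and Halr1 a lower one. Hoxa2 was counted 82 and 55 times in WT and 84 and 100 times in CBE-KO, with overlapping levels and a log2 fold change of 0.32 ± 0.22 (SE, n = 2 each; edgeR adjusted p = 0.276). Hotairm1, whose end lies next to Hoxa2, exceeded this by 1.21 ± 0.30. This size also depends on the WT libraries: the change in its log2 ratio to Hoxa2 was 0.67 without WT replicate 1 and 1.76 without WT replicate 2. The log2 ratio of Hotairm1 to Hoxa2 was -0.85 and 0.24 in WT and 1.10 and 0.72 in CBE-KO, so both CBE-KO libraries lay above both WT libraries (exact permutation p = 0.333, the smallest possible). Hoxaas2, Gm15050 and 5730596B20Rik exceeded Hoxa2 by 1.19 ± 0.35, 0.89 ± 0.35 and 1.80 ± 0.39. The size for 5730596B20Rik depends on the WT libraries: the change in its log2 ratio to Hoxa2 was 1.81 with all libraries, 1.02 without WT replicate 1 and 2.59 without WT replicate 2. Halr1 differed from Hoxa2, the nearest HoxA gene reported here at a distance of 48732 bases, by -0.20 ± 0.23, and its ratios overlapped between groups.

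Against Hoxa3, whose span includes or touches 4 of them, the noncoding genes differed less. Since it is not known whether reads of overlapping genes were told apart, these may not be separate measurements. Hoxa3 rose from 253 and 231 counts to 676 and 655, with a log2 fold change of 1.34 ± 0.09 (SE, n = 2 each; edgeR adjusted p = 2.52e-09). Hoxaas2 differed from it by 0.16 ± 0.28, Gm15050 by -0.14 ± 0.28 and Hoxaas3 by -0.38 ± 0.28. The corresponding 95% intervals, -0.38 to 0.71, -0.68 to 0.41 and -0.94 to 0.17, hold 0 but are wide, so equal change is not shown. 5730596B20Rik, inside the same span, rose by 0.77 ± 0.34 more than Hoxa3. Its log2 ratio to Hoxa3 was -4.41 and -3.28 in WT and -3.21 and -2.88 in CBE-KO, where WT replicate 2 nearly met CBE-KO replicate 1. That change of 0.79 in the ratio was 0.23 without WT replicate 1 and 1.36 without WT replicate 2.

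Around the middle of the cluster, Hoxa4 rose by a log2 fold change of 0.95 ± 0.13 (SE, n = 2 each; edgeR adjusted p = 1.77e-05) and Hoxa5 by 1.22 ± 0.06 (SE, n = 2 each; edgeR adjusted p = 1.07e-10). Hoxaas3 differed from Hoxa4 by 0.00 ± 0.30, with a 95% interval of -0.58 to 0.59, and from Hoxa5, which it covers, by -0.26 ± 0.27. Its difference from Hoxa6, also covered, was 0.09 ± 0.46, and from Hoxa7, 2025 bases beyond its end, -0.55 ± 0.30. The log2 ratio of Hoxaas3 to Hoxa7 was -1.57 and -1.76 in WT and -2.36 and -2.09 in CBE-KO, without overlap. Of the noncoding genes before Hoxa4, Hoxaas2 exceeded it by 0.55 ± 0.30, Gm15050 by 0.25 ± 0.30 and 5730596B20Rik by 1.16 ± 0.35. For 5730596B20Rik the change in the log2 ratio to Hoxa4 was 0.60 without WT replicate 1 and 1.77 without WT replicate 2.

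In HoxB, Hoxb5os, which did not itself pass, had a higher fitted change than the genes it covers, Hoxb5 and Hoxb6, with a large error. Hoxb5 was counted 210 and 161 times in WT and 153 and 185 times in CBE-KO, with overlapping levels and a log2 fold change of -0.24 ± 0.16 (SE, n = 2 each; edgeR adjusted p = 0.243), a negative sign that it shared with no other tested Hox protein gene. Hoxb5os differed from Hoxb5 by 1.75 ± 0.64, with a 95% interval of 0.49 to 3.00, and from Hoxb6 by 1.04 ± 0.63, with an interval of -0.20 to 2.27 that holds 0. It differed by 0.61 ± 0.65 from Hoxb7 and by 1.31 ± 0.67 from Hoxb3, the latter with an interval of 0.000353 to 2.63. Each Hoxb5os value rests on 12 counts or fewer per library.

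**Figure D3:**
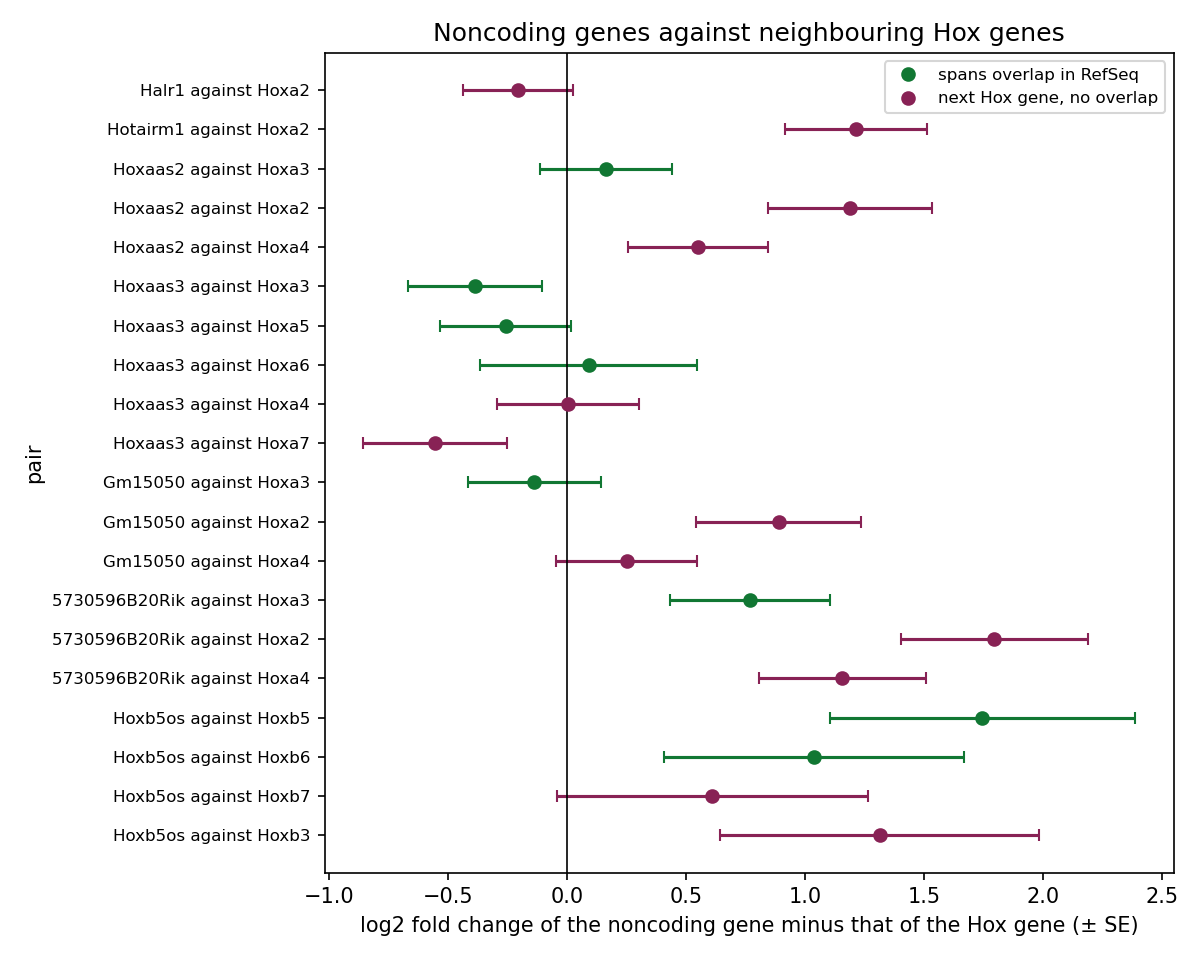
Difference in log2 fold change between each noncoding gene and a neighbouring Hox protein gene (horizontal axis, bars ± SE) for the 20 pairs with both genes tested, with green for overlapping spans and purple for the next Hox gene without overlap. The pairs with Hoxa2 lie to the right of 0 except that of Halr1, and 3 of the 4 overlapping pairs with Hoxa3 lie between -0.38 and 0.16.

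**Figure D4:**
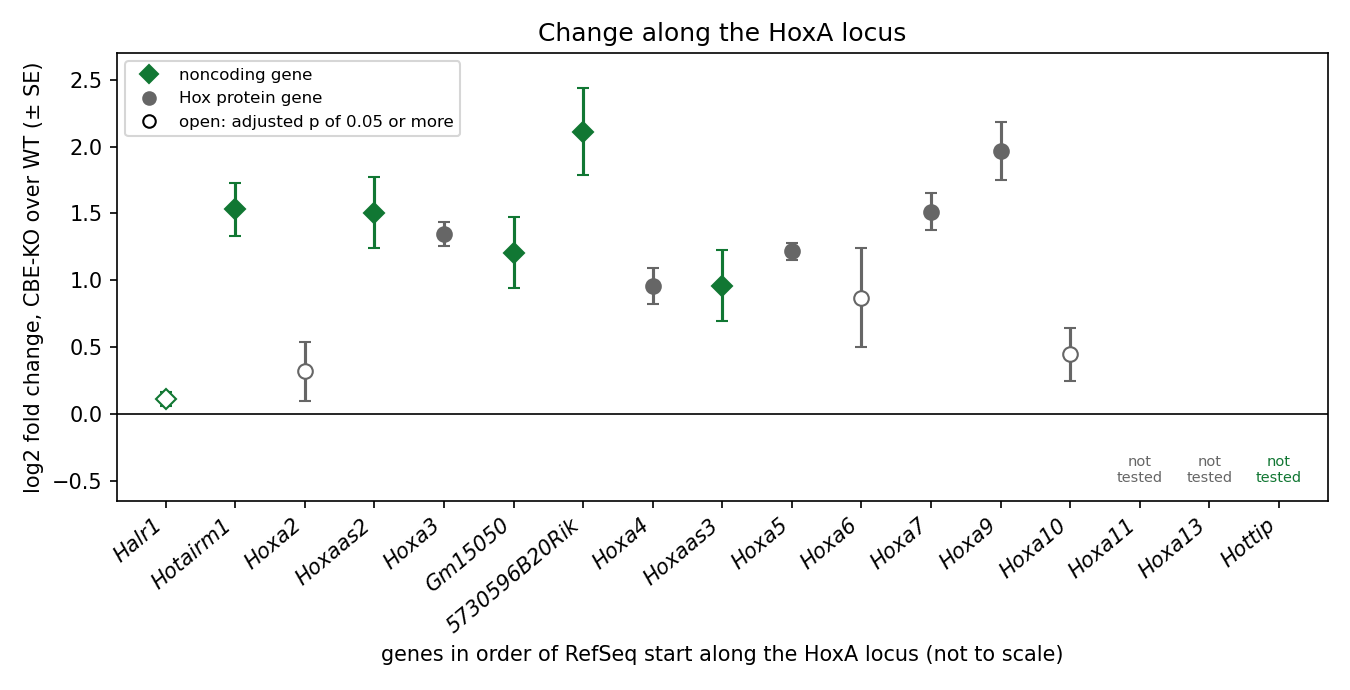
Log2 fold change, CBE-KO over WT (vertical axis, bars ± SE, n = 2 libraries each), of noncoding genes (green diamonds) and Hox protein genes (grey circles) in the order of their RefSeq starts along HoxA, evenly spaced. Open symbols have an adjusted p of 0.05 or more, which holds for Halr1, Hoxa2, Hoxa6 and Hoxa10; Hoxa11, Hoxa13 and Hottip were not tested.

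By size of change alone, over the 4 libraries and 28 tested Hox protein genes, the one closest to Hotairm1, to Hoxaas2 and to Hoxb5os was Hoxa7, at a log2 fold change of 1.51. Hoxaas3 was closest to Hoxa4 (0.95) and Gm15050 to Hoxa5 (1.22), both genes of the same cluster. 5730596B20Rik was closest to Hoxc13 (2.17), followed by Hoxa9 (1.97). Halr1 was closest to Hoxb3 (0.19). The likeness is a description, and the standard errors of the members, 0.05 to 0.62, limit it.

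Most of the tested Hox protein genes passed as higher. Of the 38 reported here, 28 were tested and 21 passed, all as higher, with a median log2 fold change of 1.24. The share of all tested genes that passed as higher was 21.6%. In HoxA 5 of the 8 tested genes reported here passed, in HoxB 6 of 10, in HoxC 7 of 7 and in HoxD 3 of 3. Of 12 further Hox noncoding genes listed, 10 had a row in the tables, 4 of which were at 0 in every library, and 2 were tested. Haglr, the antisense RNA at HoxD, went from 6 and 2 counts to 19 and 17, with a log2 fold change of 2.02 ± 0.56 (SE, n = 2 each; edgeR adjusted p = 0.00743). That call was lost in DESeq2 and without WT replicate 2. Mir196a-1, a microRNA gene at HoxB, was counted 48 and 46 times in WT and 75 and 63 times in CBE-KO and did not pass, at 0.43 ± 0.23 (SE; edgeR adjusted p = 0.134). Hoxb3os, at HoxB and too low to test, went the other way, from 7 and 13 counts in WT to 5 and 5 in CBE-KO. The other untested genes with counts, Hoxa11os, Mir10a and Mir615, overlapped between the groups.

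Among the genes that flank HoxA few passed. Of 11 listed, 9 were tested, with a median log2 fold change of 0.01, and 1 passed in edgeR: Skap2, a cytoplasmic adaptor gene on the far side of Halr1, at 0.39 ± 0.06 (SE, n = 2 each; edgeR adjusted p = 6.77e-05). Nfe2l3 and Jazf1 had larger log2 fold changes with larger errors, 0.61 ± 0.31 and 0.42 ± 0.42 (SE), and did not pass. Of 14 genes for chromatin proteins linked to Hox control, 13 were tested, 4 passed as lower (3 with library totals alone) and 1 as higher. The lower ones were Eed (-0.46 ± 0.05, SE), Dpy30 (-0.45 ± 0.05), Jarid2 (-0.41 ± 0.05) and Suz12 (-0.22 ± 0.05). Eed, Suz12 and Jarid2 encode parts or partners of Polycomb repressive complex 2, and Dpy30 a subunit of Kmt2 complexes. The 8 that did not pass included Ezh2, also of Polycomb repressive complex 2 (-0.05 ± 0.05, SE), Wdr5 (-0.09 ± 0.05) and Kmt2a (-0.07 ± 0.06). Of all tested genes, 21.5% passed as lower and 21.6% as higher. The higher one was the cohesin gene Rad21 (0.16 ± 0.05), joined by 3 others with library totals alone, and it did not pass without CBE-KO replicate 1. Ctcf did not pass (-0.05 ± 0.05, SE; edgeR adjusted p = 0.472).

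Other groups of genes were counted in the same libraries, where 21.6% of all tested genes passed as higher and 21.5% as lower. Of 12 RA response genes, all tested, 10 passed as higher and 2 as lower, with a summed level of 843 to 876 CPM in WT and 1445 to 1486 CPM in CBE-KO. Of 10 embryonic stem cell markers, 7 passed as lower and 2 as higher. Extraembryonic endoderm markers summed to 106 to 107 CPM in WT and 132 to 137 CPM in CBE-KO, and 4 of 6 passed as higher, among them Lama1 at means of 32.9 and 48.3 CPM. Gata6 did not pass, at means of 50.7 and 51.0 CPM. Neural progenitor markers summed to 23.2 to 23.6 CPM in WT and 27.4 to 27.6 CPM in CBE-KO, with 2 of 3 tested genes higher. Caudal progenitor markers summed to 128 to 149 CPM in WT and 163 to 178 CPM in CBE-KO, nearly all of it Cdx1 (means of 132 and 165 CPM), the 1 gene of 4 tested that passed. The median log2 fold change of these 4 was -0.14, and T and Cdx2 had fitted folds of 0.704 and 0.645 without passing. The part of these shifts in the change of the noncoding genes was not tested. In bulk RNA, more cells that make a transcript and more transcript per cell cannot be told apart.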

How the data were processed

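RNA-seq was analysed for 2 WT and 2 CBE-KO libraries, grouped by sample title. Each library has 1 table, in which the authors deposited raw counts for Ensembl gene identifiers. The submitters' processing notes name HISAT2 2.1.0, HTSeq 0.9.1, DESeq2 1.18.1, Bowtie2 2.3.1 and mm10, without roles. Counting mode, strand setting and annotation release are not given in the sources used here. Of 52636 identifiers, 52403 matched a symbol. Members and lists were chosen with earlier results of these data known. All 9 members are named, with their neighbouring Hox genes, closest Hox gene by fold change, and genes of the fixed lists. The values of 1 Hox gene are not reported here. Genes passing edgeR's filterByExpr were tested with edgeR 4.0.16 (R 4.3.3; TMM, glmQLFit, glmQLFTest, no covariate). The SE of a log2 fold change is its absolute value divided by the square root of the F statistic of edgeR's test. CPM use TMM-scaled totals. Log2 ratios add a pseudocount of 1 to scaled counts. Replicates differed by more than sampling noise (chi-square per degree of freedom 3.40 for WT, 2.70 for CBE-KO). Alternatives were DESeq2 1.42.0, other scalings, filters, thresholds and pseudocounts, the replicate block, and leaving out each library. Scripts were tested on simulated counts.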

Additional observations from a re-analysis of the deposited data

How the results depend on the processing

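The 7 tested members kept the sign of their log2 fold change under every alternative run, and 70 of 76 values stayed on the same side of the threshold in edgeR or DESeq2. Halr1 passed with upper-quartile scaling (0.15) and library totals alone (0.22), Hoxb5os passed with library totals alone (1.60), and Hoxaas3 did not pass in DESeq2 (0.95). Leaving out each library in turn gave ranges of 0.036 to 0.18 for Halr1 and 0.83 to 1.08 for Hoxaas3. Of 160 alternative values of the log2 ratios to neighbours, 153 kept their sign. The ratio of Hoxb5os to Hoxb7 turned to -0.023 with a pseudocount of 5. Leaving out each library, the ratio changes ranged from -0.31 to 0.57 for Hoxaas3 to Hoxa6, -0.032 to 0.0075 for Hoxaas3 to Hoxa4, -0.45 to 0.089 for Gm15050 to Hoxa3 and -0.014 to 0.43 for Gm15050 to Hoxa4.

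Over all genes, 1767 passed as higher and 2379 as lower in DESeq2, so that higher genes were 42.6% of its calls, and with a minimum change of 1 on the log2 scale, 975 passed as higher and 408 as lower. Among lists, the further Hox noncoding genes had 0 higher in DESeq2 and with a mean of at least 1 CPM (0 to 1 without each library), and the HoxA flanking genes had 1 lower without a filter, with median-of-ratios scaling and in DESeq2 (0 to 1 without each library). Chromatin partners had 4 higher with library totals alone (0 to 1 without each library), and Hox protein genes had 0 to 1 lower without each library. The cause of these changes was not tested. With 1 library left in an arm, that library is assumed to vary like the other group.

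Same-numbered libraries share only a number (correlation of their deviations 0.035). With the replicate block, 3545 genes passed as higher and 3482 as lower, and no member changed its call. Depth limits Hotair and Hoxb5os, which had 12 counts or fewer in every library.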
